A study of Mus musculus with 6 samples.

Results

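Amino acid transporters of the plasma membrane were examined as a set of 10 genes named by symbol, Slc7a1, Slc7a2, Slc3a2, Slc7a5, Slc7a11, Slc1a4, Slc1a5, Slc38a1, Slc38a4 and Slc1a3, out of 55487 gene identifiers in the count table. They were listed by name as carriers of amino acids, with no threshold on their values, by a choice made with earlier results of these data known. Bulk RNA-sequencing had been done on 6 cultures of primary cells from the skin of C57BL/6 mice, enriched with CD31 microbeads and labelled as endothelial cells (ECs). For 48 hours, 3 cultures received medium with 5 mmol/L glucose (normal glucose) and the other 3 received 20 mmol/L (high glucose), and no other treatment or allele was listed for either group. Mice of 2 to 3 months were used, 4 to 6 for an isolation, and the labels do not say whether the replicates of a group came from separate isolations, so p values measure only the spread between these samples. The question asked of the transporters was which of them differed in mRNA level between high and normal glucose.

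Amino acids are charged or polar and cross the plasma membrane through carrier proteins. Some carriers take up amino acids along with sodium and build a gradient, while others are exchangers that import an amino acid by releasing another, so that uptake of leucine or cystine depends on the pool the first group provides. In ECs and in the connective tissue cells of skin, these carriers supply arginine for nitric oxide synthesis, glutamine for energy metabolism, cystine for glutathione, and leucine, a signal to the growth kinase mTORC1.

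The total counts lay between 120192466 and 146881356 per library, so that 3 counts, taken as the floor, equalled 0.0211 to 0.0258 CPM (counts scaled to a common library size, here with edgeR's TMM factors). The TMM factors were 1.03 to 1.05 in normal glucose and 0.954 to 0.966 in high glucose, and replicates varied with a biological coefficient of variation of 8.44%. The label of the cells was checked against marker genes. Pecam1, the gene of CD31, had a mean of 0.128 CPM in normal and 0.103 CPM in high glucose, and Cdh5, which encodes VE-cadherin, had 1.80 and 0.876 CPM. Over 12 endothelial markers the summed level was 73.8 to 77.0 CPM in normal and 57.0 to 57.6 CPM in high glucose, with 3 markers called lower, 2 called higher and 4 not called of 9 tested. Some are named here after their values were seen. Flt1, a VEGF receptor gene, held most of the sum (55.3 and 38.4 CPM, called lower), Tek and Erg were called higher (1.29 to 2.04 and 0.0373 to 0.106 CPM), and Tie1 did not exceed 3 counts in any library. Over 10 fibroblast markers the summed level was 38529 to 41723 CPM in normal and 70649 to 75547 CPM in high glucose. At an adjusted p under 0.05, 8 of them were higher and 1 was lower in high glucose, beside 31.4% called over all genes tested. Col1a1 and Col3a1, which encode chains of type I and type III collagen, rose by 0.76 and 1.39 on the log2 scale. The summed markers of smooth muscle cells and pericytes were at 617 to 695 CPM in normal and 517 to 543 CPM in high glucose. Of 7 tested, 5 were called lower and 1 higher. Those of keratinocytes were at 4.05 to 5.03 and 4.61 to 5.04 CPM, those of leukocytes, with Ptprc at a mean of 0.0426 CPM and at 0 counts, were at 8.55 to 9.47 and 5.94 to 6.68 CPM, and those of Schwann cells and melanocytes at 14.9 to 16.1 and 12.3 to 13.1 CPM. Of 3 keratinocyte markers tested 1 was called higher, and of 4 leukocyte markers tested 2 were called lower. Of 4 Schwann cell and melanocyte markers tested, 2 were called lower and 1 higher. The cells are therefore referred to as skin cultures. The part of these marker differences in the transporter results was not tested, and in bulk samples fewer cells of a type and less RNA per cell cannot be told apart.

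All 10 transporter genes passed the filter on low counts. In high glucose 4 of them were higher (Slc7a2, Slc1a3, Slc1a5 and Slc3a2), 1 was lower (Slc7a5) and 5 were not called by edgeR's quasi-likelihood test at an adjusted p under 0.05, with p values adjusted over all 19015 genes tested. Over all genes tested 31.4% were called, 16.9% as higher and 14.5% as lower. The lower share of those calls was 46.2%, and it became 56.5% with upper quartile normalization and 72.9% when libraries were scaled by their totals alone, a scaling that shifted the median gene by -0.115 on the log2 scale. The log2 fold changes of the 10 genes ran from -0.29 to 0.98 with a median of 0.13, beside a median of 0.0062 over all genes tested. The groups' normalised values were fully separated for 6 of the 10 genes, those 5 and Slc1a4, against 46.4% of all genes tested. None of the 10 was called with an added minimum of 1 on the absolute log2 fold change, which 4.93% of all genes tested met.

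**Figure D1:**
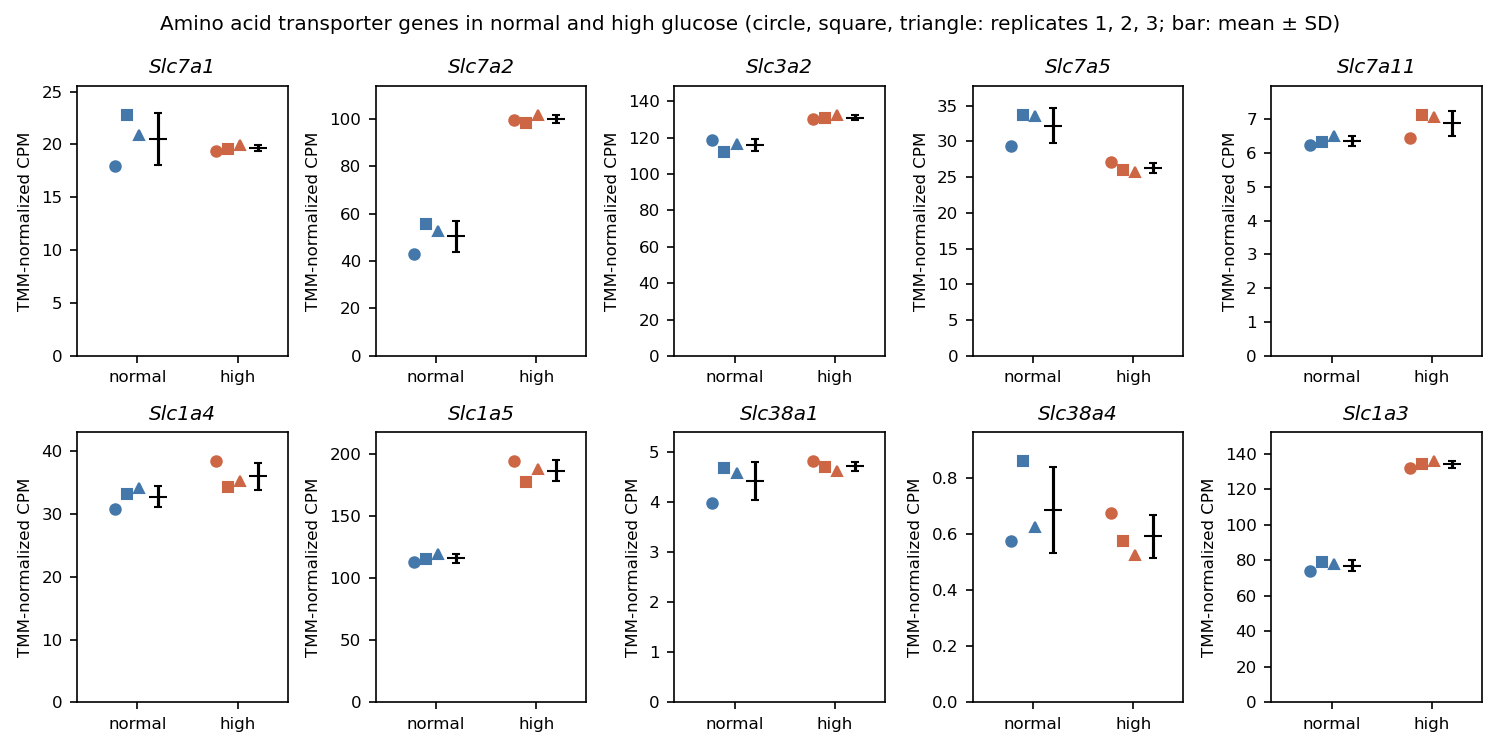
TMM-normalized CPM of each of the 10 transporter genes (y axis, from 0) in the 3 normal-glucose and 3 high-glucose libraries (x axis), with replicates 1, 2 and 3 as circle, square and triangle and bars for the mean ± SD. The groups lie apart for Slc7a2, Slc3a2, Slc7a5, Slc1a4, Slc1a5 and Slc1a3, and overlap for Slc7a1, Slc7a11, Slc38a1 and Slc38a4.

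Several of these genes are textbook targets of ATF4, the transcription factor that cells make when amino acids are short, which binds with C/EBP partners at the C/EBP-ATF response element. Its core was searched as TGATGNAA on both strands in the RefSeq promoter windows, which run from 250 bases before to 50 bases after an annotated start (GRCm38.p6). Windows were matched for 6 of the 10 genes (9 windows, as Slc7a1 and Slc38a4 have several starts), namely Slc7a1, Slc7a11, Slc3a2, Slc1a4, Slc38a4 and Slc1a3. The core was present in 2 of the 6, Slc7a11 and Slc1a4, and in 4.51% of the 27025 genes with a window (3.97% of 32851 windows). Shown here are those windows' stretches with the core in capitals, and for comparison a stretch from Slc1a3, the called gene among the matched ones with the largest rise, in which none of the searched motifs occurred. All 3 are read 5′ to 3′ on the minus strand, the strand of each gene.
Slc7a11, chr3:50443614-50443713: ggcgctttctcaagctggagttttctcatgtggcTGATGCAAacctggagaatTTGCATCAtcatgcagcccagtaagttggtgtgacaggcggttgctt
Slc1a4, chr11:20332708-20332773: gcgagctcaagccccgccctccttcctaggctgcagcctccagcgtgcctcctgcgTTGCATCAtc
Slc1a3, chr15:8710808-8710907: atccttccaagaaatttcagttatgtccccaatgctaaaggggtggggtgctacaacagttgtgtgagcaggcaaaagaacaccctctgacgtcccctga
In Slc7a11 the core occurred on each strand, beginning 66 and 47 bases before the start, and in Slc1a4 it occurred on the opposite strand and spanned the start, beginning 4 bases before it. The E-box CACGTG was in none of the 9 windows (7.15% of all windows), and the antioxidant response element core TGACNNNGC was in 1, at 11 bases before a start of Slc7a1 (12.4% of all windows). None of these matches overlapped another. As a check of the starts, the bases shortly after them were sought in annotated transcripts. They occurred in 4 of 5 transcripts of Slc7a11 and 1 of 2 of Slc1a4, but in 0 of 8 of Slc1a3 and 0 of 9 of Slc3a2. The starts of the Slc1a3 and Slc3a2 windows were thus not matched to a transcript, and their lack of the core is read with that limit. Neither gene with the C/EBP-ATF core was called between the glucose concentrations. Slc7a2, Slc1a5 and Slc7a5, which were called, and Slc38a1 had no matched window and were not searched. The search therefore cannot say whether those genes carry the core, and a match of letters is not evidence of binding.

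The cationic carriers showed unlike values. Slc7a1 (CAT-1) and Slc7a2 (CAT-2) encode facilitative carriers of arginine, lysine and ornithine. Slc7a1 is the widely expressed form, and Slc7a2 is known for its induction together with inducible nitric oxide synthase in activated cells. Slc7a2 (ENSMUSG00000031596, chr8:40862396-40922308 of GRCm38, plus strand) stood at 43.1, 55.6 and 52.5 CPM in normal and at 99.3, 98.3 and 102 CPM in high glucose. Every high-glucose library was above every normal-glucose library, and the spread lay mainly in normal glucose, where replicate 1 was the lowest. The mean rose from 50.4 ± 6.49 to 99.7 ± 1.66 CPM (SD, n = 3), or by 0.98 on the log2 scale (SE 0.084, 95% interval 0.80 to 1.17; adjusted p = 1.25e-05 by edgeR). It was the largest change among the 10 transporter genes, and 405 of the genes called higher rose more. Exons of Slc7a2 share 635 positions (6.95% of their merged length) with the lincRNA Gm26584 on the opposite strand, which was not analysed here, and whether the counting used strand is not given in the sources used here.

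Slc7a1 (ENSMUSG00000041313, chr5:148327410-148399904, minus strand) had 18.0, 22.8 and 20.9 CPM in normal and 19.4, 19.5 and 20.0 CPM in high glucose. All high-glucose values fell inside the range of the normal-glucose ones. The means of 20.5 ± 2.43 and 19.6 ± 0.287 CPM differed by a log2 fold change of -0.064 (95% interval -0.24 to 0.12; adjusted p = 0.586 by edgeR). Leaving out normal-glucose replicate 1 gave -0.17 (adjusted p = 0.0404) and leaving out normal-glucose replicate 2 gave 0.0063, and correcting each library for GC content and length gave -0.19 (adjusted p = 0.0153). Per length and within a library, the ratio of Slc7a1 to Slc7a2 was 0.330, 0.325 and 0.315 in normal and 0.155, 0.158 and 0.156 in high glucose. The groups did not overlap (difference -1.05 on the log2 scale, two-sided exact permutation p = 0.1, the smallest that 3 against 3 can give, and 0.14 after adjustment over the 7 ratios examined). Slc7a3, another cationic carrier of this family and not the only other one, was chosen for mention after its values were seen. It fell from 1.33 ± 0.155 to 0.585 ± 0.172 CPM (log2 fold change -1.17, adjusted p = 0.00175 by edgeR).

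The heavy chain Slc3a2 and its light chain Slc7a5 moved in opposite directions. Slc3a2 (4F2hc, CD98) encodes a membrane glycoprotein that carries no amino acid by itself and brings light chains to the cell surface. Slc7a5 (LAT1) is the light chain for leucine and other large neutral amino acids, and Slc7a11 (xCT) is the light chain that imports cystine in exchange for glutamate. Slc3a2 (ENSMUSG00000010095, chr19:8706882-8723369, minus strand) had 119, 112 and 117 CPM in normal and 130.2, 131 and 133 CPM in high glucose. The groups did not overlap, and the gap between them was small. From 116 ± 3.33 to 131 ± 1.25 CPM the log2 fold change was 0.18 (SE 0.049, 95% interval 0.070 to 0.29; adjusted p = 0.0187 by edgeR), and 3083 of the genes called higher rose more. This call was lost without normal-glucose replicate 3 (adjusted p = 0.0566) and without high-glucose replicate 1, 2 or 3 (adjusted p = 0.0952, 0.0731 and 0.129), with upper quartile normalization (0.13, adjusted p = 0.0590) and with scaling by library totals (0.063, adjusted p = 0.330).

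Slc7a5 (ENSMUSG00000040010, chr8:121881150-121907694, minus strand) was the member that fell. It stood at 29.4, 33.7 and 33.6 CPM in normal and at 27.1, 26.0 and 25.7 CPM in high glucose. The groups did not overlap, with normal-glucose replicate 1 the closest to the high-glucose libraries. The mean went from 32.2 ± 2.46 to 26.3 ± 0.751 CPM (log2 fold change -0.29, SE 0.064, 95% interval -0.44 to -0.15; adjusted p = 0.00587 by edgeR), and 2075 of the genes called lower fell more. In all 18 alternative settings it was called lower, with log2 fold changes from -0.41 to -0.27.

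Slc7a11 (ENSMUSG00000027737, chr3:49892526-50443614, minus strand) had 6.23, 6.32 and 6.51 CPM in normal and 6.44, 7.12 and 7.06 CPM in high glucose. High-glucose replicate 1 lay within the normal-glucose range and the other two lay above it. The log2 fold change was 0.11 (95% interval -0.061 to 0.29; adjusted p = 0.303 by edgeR), and its sign was negative with library totals (-0.00077) and after correction for GC content and length (-0.0080). Relative to Slc3a2 in the same library, Slc7a5 per length was 0.235, 0.286 and 0.274 in normal and 0.198, 0.190 and 0.184 in high glucose, with no overlap (difference -0.47 on the log2 scale, exact permutation p = 0.1, adjusted 0.14). The Slc7a11 to Slc3a2 ratio overlapped between groups, with geometric means of 0.0139 and 0.0133 (exact permutation p = 0.3, adjusted 0.35).

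Other light chains of Slc3a2 covered a wide range of levels. Slc7a6 (y+LAT2), which exchanges cationic for neutral amino acids, was the light chain with the highest level per length, at a mean of 11.95 CPM per kb in normal and 14.6 CPM per kb in high glucose. It rose by 0.29 on the log2 scale (54.6 ± 4.08 to 66.8 ± 1.86 CPM, adjusted p = 0.00562 by edgeR), while scaling by library totals left it uncalled. Slc7a8 (LAT2), a second carrier of large neutral amino acids, went from 3.59 ± 0.120 to 6.86 ± 0.595 CPM (log2 fold change 0.94, adjusted p = 3.31e-05), and its level per length was 0.717 and 1.37 CPM per kb. Slc7a7 (y+LAT1) had 13.7 ± 1.65 and 13.9 ± 0.955 CPM (adjusted p = 0.919). Summed over Slc7a5, Slc7a6, Slc7a7, Slc7a8, Slc7a10 and Slc7a11, light chain mRNA per length relative to Slc3a2 had geometric means of 0.804 in normal and 0.761 in high glucose, and the groups overlapped (exact permutation p = 0.4, adjusted 0.4).

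**Figure D2:**
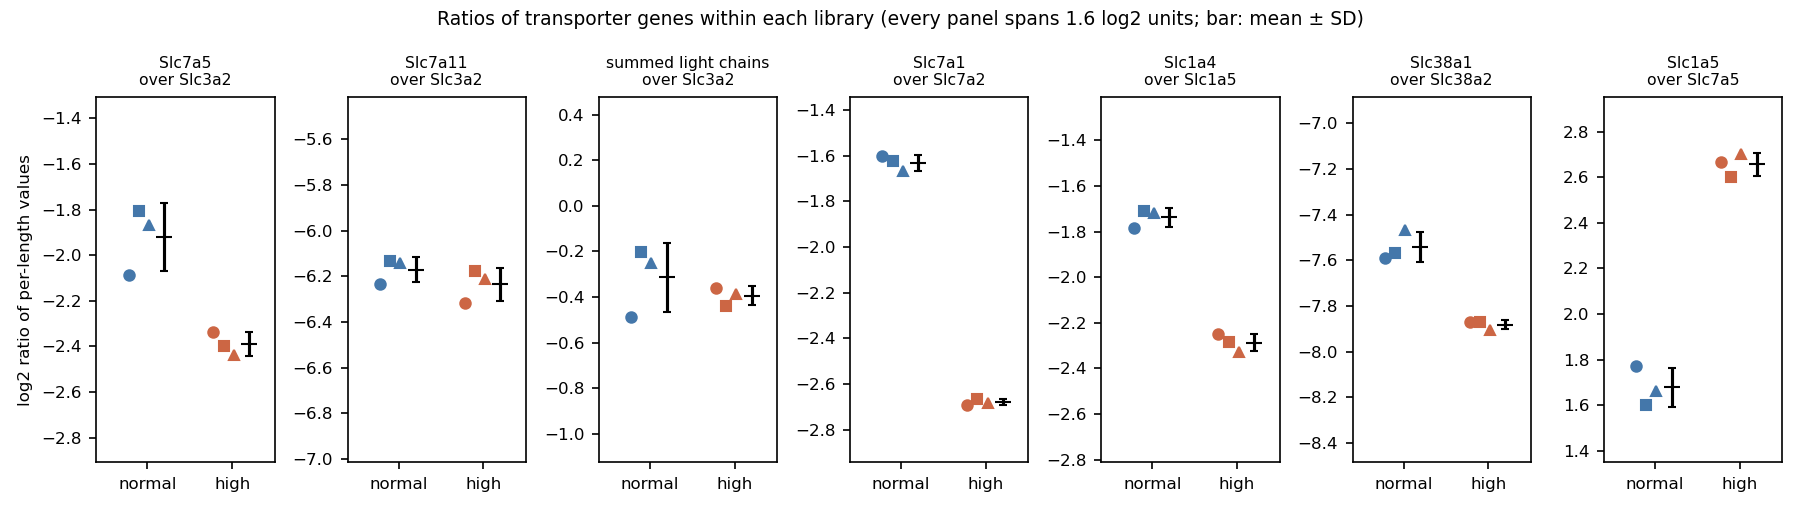
Log2 ratios of per-length values within each library (y axis, every panel spanning the same range) in normal and high glucose (x axis), with replicates 1, 2 and 3 as circle, square and triangle and bars for the mean ± SD. The groups lie apart in 5 of the 7 ratios, and overlap for Slc7a11 over Slc3a2 and for the summed light chains over Slc3a2. A ratio moves with either of its genes, and each separated ratio holds a gene that was called on its own.

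Of the exchangers of small neutral amino acids, Slc1a5 rose and Slc1a4 was not called. Slc1a5 (ASCT2) exchanges glutamine, serine, threonine, alanine and cysteine in a sodium-dependent way and is known as a main glutamine importer of dividing cells. Slc1a4 (ASCT1) exchanges alanine, serine, cysteine and threonine and takes little glutamine. Slc1a5 (ENSMUSG00000001918, chr7:16781340-16798274, plus strand) had 113.0, 115 and 119.5 CPM in normal and 194, 178 and 188 CPM in high glucose. The groups were far apart compared with the spread in either. The mean rose from 116 ± 3.33 to 186 ± 8.27 CPM (log2 fold change 0.69, SE 0.054, 95% interval 0.57 to 0.81; adjusted p = 6.97e-06 by edgeR), and it was called higher in all 18 alternative settings, between 0.57 and 0.71. Of the genes called higher, 717 rose more.

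Slc1a4 (ENSMUSG00000020142, chr11:20302180-20332713, minus strand) had 30.9, 33.1 and 34.2 CPM in normal and 38.3, 34.3 and 35.2 CPM in high glucose. Its groups did not overlap, but normal-glucose replicate 3 and high-glucose replicate 2 were nearly level. The log2 fold change was 0.14 (95% interval -0.0024 to 0.28; adjusted p = 0.124 by edgeR), and none of the 18 alternative settings called it. The Slc1a4 to Slc1a5 ratio per length was 0.290, 0.306 and 0.304 in normal and 0.210, 0.205 and 0.199 in high glucose, without overlap (difference -0.55 on the log2 scale, exact permutation p = 0.1, adjusted 0.14). Slc1a5 relative to Slc7a5, the pair often described as import of glutamine and its exchange for leucine, went from a geometric mean of 3.20 to 6.30, and no library of either group lay in the range of the other (difference 0.98, exact permutation p = 0.1, adjusted 0.14).

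Slc1a3 (GLAST, EAAT1), a high-affinity sodium-coupled carrier of glutamate and aspartate best known from glia, was the member with the smallest adjusted p. Slc1a3 (ENSMUSG00000005360, chr15:8634124-8710764, minus strand) had 73.8, 79.1 and 78.2 CPM in normal and 132, 134 and 136 CPM in high glucose. All high-glucose libraries were above all normal-glucose libraries and close to each other. The mean rose from 77.0 ± 2.84 to 134 ± 1.75 CPM (log2 fold change 0.80, SE 0.051, 95% interval 0.69 to 0.91; adjusted p = 1.63e-06 by edgeR), with 578 of the genes called higher rising more. In all 18 alternative settings it was called higher, between 0.68 and 0.81.

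The system A members, Slc38a1 (SNAT1) and Slc38a4 (SNAT4), were the lowest of the set. System A carriers move small neutral amino acids such as alanine and glutamine into the cell together with sodium, and Slc38a4 is an imprinted gene best known from placenta and liver. Slc38a1 (ENSMUSG00000023169, chr15:96571418-96642913, minus strand) had 3.99, 4.69 and 4.58 CPM in normal and 4.81, 4.70 and 4.63 CPM in high glucose. The groups overlapped through normal-glucose replicate 2. Its log2 fold change was 0.093 (95% interval -0.11 to 0.30; adjusted p = 0.477 by edgeR), negative with library totals (-0.021) and after correction for GC content and length (-0.029). Slc38a4 (ENSMUSG00000022464, chr15:96994820-97055956, minus strand) had 72, 122 and 80 counts in normal and 96, 67 and 71 counts in high glucose, or 0.575, 0.860 and 0.625 against 0.677, 0.576 and 0.527 CPM. The groups overlapped, and at this depth the 95% interval of its log2 fold change, -0.65 to 0.22, was the widest of the 10 (estimate -0.21, adjusted p = 0.447).

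Between these genes on chromosome 15 lies Slc38a2 (SNAT2), the system A carrier known to be induced when amino acids are short or the medium is hypertonic. Slc38a2 had 394, 456 and 415 CPM in normal and 578, 563 and 569 CPM in high glucose, with no overlap. It rose from 422 ± 31.8 to 570.2 ± 7.63 CPM (log2 fold change 0.43, adjusted p = 3.83e-04 by edgeR), and among the transporters shown per length it had the highest level, 47.7 CPM per kb in normal and 64.5 CPM per kb in high glucose. Slc38a1 relative to Slc38a2 had a geometric mean ratio of 0.00537 in normal and 0.00424 in high glucose, without overlap (difference -0.34 on the log2 scale, exact permutation p = 0.1, adjusted 0.14).

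Levels of different genes were compared per length, as TMM-normalized CPM per kb of merged exons. In normal glucose the order of the 10 means was Slc3a2 (32.9 CPM per kb), Slc1a5 (27.8), Slc1a3 (9.02), Slc7a5 (8.69), Slc1a4 (8.33), Slc7a2 (5.52), Slc7a1 (1.78), Slc7a11 (0.456), Slc38a1 (0.256) and Slc38a4 (0.161). The ranges of Slc1a3 and Slc7a5 and those of Slc7a5 and Slc1a4 overlapped, and the other neighbours did not. In high glucose Slc1a5 (44.7 CPM per kb) stood above Slc3a2 (37.2), and Slc1a3 (15.7), Slc7a2 (10.9) and Slc1a4 (9.16) stood above Slc7a5 (7.09). No neighbours overlapped there, and the places from Slc7a1 downward were as in normal glucose. With the length of the longest transcript in place of merged exons, Slc1a5 and Slc3a2 overlapped in normal glucose, at 41.3 and 41.2 CPM per kb.

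Of the summed per-length level of the 10 genes, Slc3a2 made up 34.7% ± 1.63 in normal and 29.2% ± 0.630 in high glucose, and Slc1a5 made up 29.3% ± 0.273 and 35.1% ± 0.858 (SD, n = 3). Slc7a5 went from 9.16% ± 0.503 to 5.57% ± 0.139 of the sum, and Slc7a2 from 5.81% ± 0.645 to 8.58% ± 0.154. The shares of all 10 genes were separated between the groups, including those of Slc7a1, Slc7a11, Slc38a1 and Slc38a4, whose levels overlapped. A share also moves with the levels of the other members, and that of Slc3a2 fell while its level rose. With Slc1a5, Slc1a3 and Slc7a2 higher, the share of a member with a steady level falls. Such a separated share is therefore no result about that member. Among the normal-glucose libraries, replicate 1 had the lowest CPM for every member except Slc3a2, for which it had the highest.

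**Figure D3:**
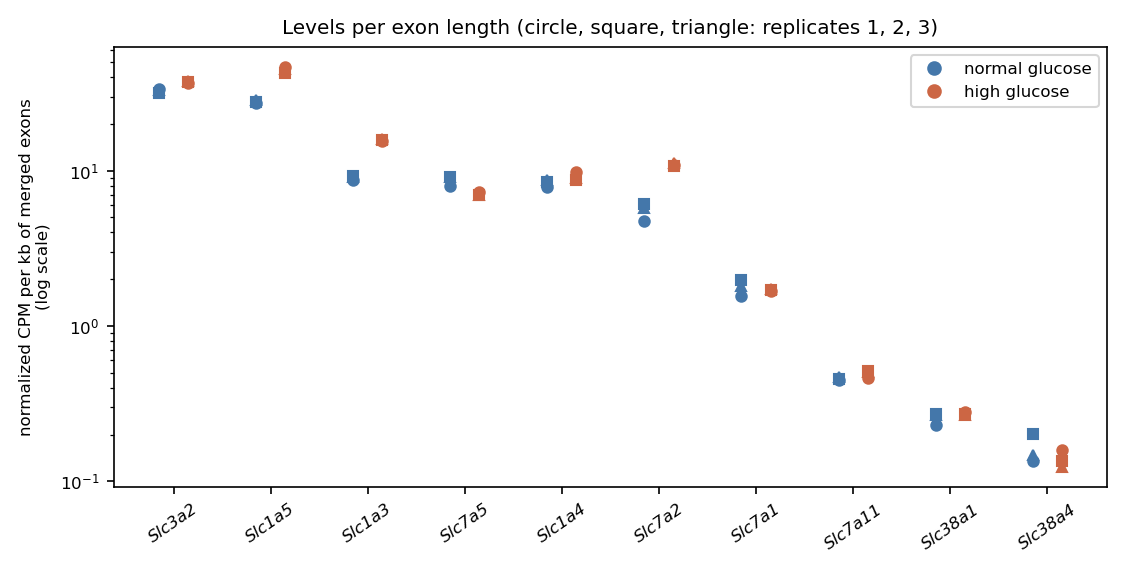
TMM-normalized CPM per kb of merged exons (y axis, log scale) of the 10 transporter genes, ordered by their mean in normal glucose (x axis), with normal-glucose libraries in blue and high-glucose libraries in orange. Slc1a5 passes Slc3a2 in high glucose, and Slc7a2 and Slc7a5 change places around Slc1a4.

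For other plasma membrane carriers of amino acids, 34 genes were listed and 22 were tested, of which 7 were higher, 6 were lower and 9 were not called, with a median log2 fold change of -0.024. Over all genes tested, the shares called higher and lower were 16.9% and 14.5%, with a median of 0.0062, and these are the values beside which this and the following lists stand. Of those named by size of change, Slc43a1 (LAT3), a facilitative carrier of large neutral amino acids, rose from 1.83 ± 0.0971 to 4.24 ± 0.223 CPM (log2 fold change 1.21, adjusted p = 8.58e-06 by edgeR). Slc36a2, a proton-coupled carrier of glycine, alanine and proline, rose by 1.04 on the log2 scale (adjusted p = 3.04e-05) from 2.34 to 4.79 CPM. The proline carrier Slc6a7 fell by 0.57, the aromatic amino acid carrier Slc16a10 (TAT1) by 0.40 and the glutamate carrier Slc1a6 (EAAT4) by 0.30 on the log2 scale (adjusted p = 0.0234, 0.00921 and 0.0497). The call of Slc1a6 was lost in 10 of its 18 alternative settings, among them the replicate block and each library left out except normal-glucose replicate 1 (adjusted p of those 0.0803 to 0.151), and that of Slc6a7 was lost without normal-glucose replicate 3 or high-glucose replicate 2 or 3 (adjusted p = 0.0560 to 0.0619). Slc43a2 (LAT4), with a log2 fold change of 0.20, was not called (adjusted p = 0.0527). Without high-glucose replicate 3, 3 of the genes were called lower in place of 6.

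**Figure D4:**
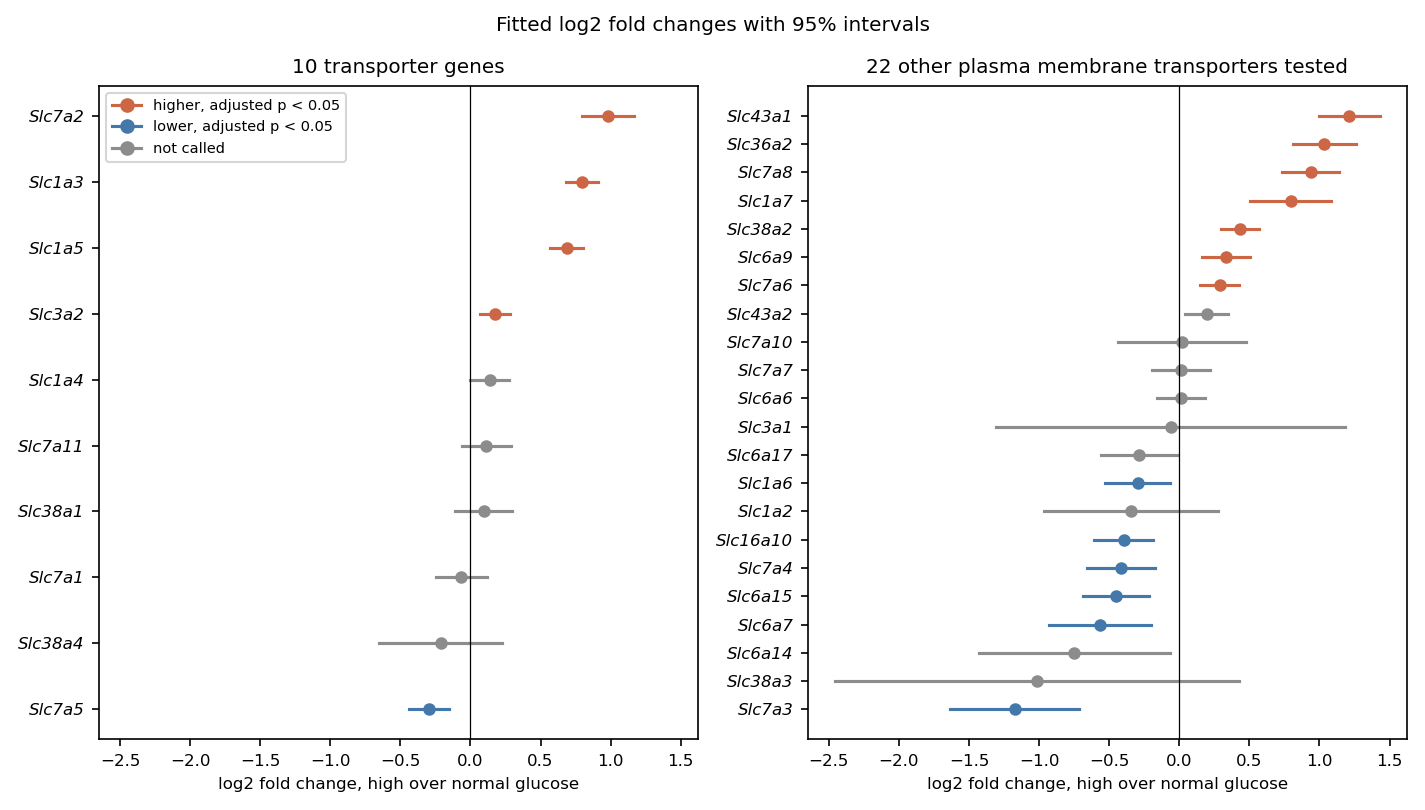
Fitted log2 fold changes of high over normal glucose (x axis) with 95% intervals for the 10 transporter genes and for the 22 other plasma membrane amino acid transporters tested (y axis), coloured by the call at an adjusted p under 0.05. Of the 10 genes 4 are called higher and 1 lower, and of the 22 genes 7 are called higher and 6 lower.

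Among carriers in the membranes of lysosomes and mitochondria, 2 were higher, 2 were lower and 13 were not called of 17 tested (19 listed, median log2 fold change -0.049), beside 31.4% called over all genes tested. Slc36a4 and Slc38a9, the latter a lysosomal arginine sensor of the mTORC1 pathway, rose by 0.27 and 0.26 on the log2 scale (adjusted p = 0.0215 and 0.0225). The mitochondrial aspartate and glutamate carrier Slc25a13 fell by 0.92 from 3.79 ± 0.438 to 2.00 ± 0.0697 CPM (adjusted p = 1.31e-04), and its relative Slc25a12 fell by 0.15 (adjusted p = 0.0498), a call lost in 8 of 18 alternative settings, among them the replicate block. With scaling by library totals the calls became 0 higher and 4 lower. Leaving out normal-glucose replicate 3 or high-glucose replicate 1, 2 or 3 gave 0 higher and 1 lower, so that Slc36a4, Slc38a9 and Slc25a12 were then not called, and leaving out normal-glucose replicate 2 gave 1 lower.

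The list for the response to amino acid shortage was drawn around ATF4 and also holds genes not particular to that response, such as Eif2ak2 and Myc. It showed 1 higher, 7 lower and 12 not called of 20 tested (21 listed, median log2 fold change -0.14), beside 16.9% higher and 14.5% lower over all genes tested. Atf4 itself had 230.5 ± 21.9 and 210.2 ± 5.63 CPM (log2 fold change -0.13, adjusted p = 0.170). The called falls included Vldlr, a lipoprotein receptor (-0.96, adjusted p = 1.92e-06), Chac1, which degrades glutathione (-0.77, adjusted p = 4.71e-04), the kinase gene Eif2ak2 (-0.28, adjusted p = 0.00255), Sesn2, a leucine sensor (-0.25, adjusted p = 0.0112), Asns, asparagine synthetase (-0.24, adjusted p = 0.00694), and Myc (-0.19, adjusted p = 0.0271). Cebpb, which encodes a C/EBP factor, rose by 0.33 (adjusted p = 0.0125). Trib3 had 10.4 and 10.5 CPM (adjusted p = 0.871). Ddit3 (CHOP) is carried by more than 1 identifier and was left out of the count, and the identifier that holds nearly all its reads had 29.0 ± 2.27 and 25.5 ± 0.371 CPM (log2 fold change -0.18, adjusted p = 0.0530). With scaling by library totals 0 were higher and 12 lower. Leaving out normal-glucose replicate 3 or high-glucose replicate 1 or 2 left 0 genes called higher, and Myc was also not called when any of these was left out (adjusted p = 0.0710 to 0.0806).

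The sensors and regulators of mTORC1, the kinase complex that leucine and arginine activate, showed 7 higher, 6 lower and 20 not called of 33 tested (34 listed, median log2 fold change -0.045), a share near the 31.4% called over all genes tested. Castor2 and Sesn1, from families that hold this complex back when arginine or leucine is short, rose by 0.59 (adjusted p = 1.82e-05) and 0.49 (adjusted p = 1.86e-04) on the log2 scale, and Mtor rose by 0.36 (adjusted p = 0.0125). Of the same families, Sesn2 fell by 0.25 (adjusted p = 0.0112). Castor1, named here after its values were seen, was not called (-0.15, adjusted p = 0.121). Fnip2, a partner of folliculin, fell by 0.26 and Lamtor1, which anchors the complex to lysosomes, fell by 0.24 (adjusted p = 0.0148 and 0.0326). With scaling by library totals the calls became 2 higher and 13 lower. Without normal-glucose replicate 3 or high-glucose replicate 3, 3 were lower, and without high-glucose replicate 1 or 3 the number higher was 2 or 4. Of the named genes, Mtor was then not called without high-glucose replicate 1 (adjusted p = 0.0653), Fnip2 without normal-glucose replicate 3 (0.0519), and Lamtor1 when any high-glucose replicate was left out (0.0648 to 0.0804).

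The enzymes that use or make the carried amino acids showed 4 higher, 15 lower and 17 not called of 36 tested (37 listed, median log2 fold change -0.18), beside 16.9% higher and 14.5% lower over all genes tested. For arginine, the inducible nitric oxide synthase Nos2 rose from 1.49 ± 0.107 to 5.51 ± 0.453 CPM (log2 fold change 1.89, adjusted p = 7.62e-07 by edgeR), and Ass1, which joins citrulline and aspartate to argininosuccinate, the precursor of arginine, fell from 434 ± 13.8 to 207 ± 4.04 CPM (log2 fold change -1.07, adjusted p = 2.22e-07). The glutamine synthetase gene Glul rose by 0.59 (185 ± 11.2 to 279.7 ± 2.99 CPM, adjusted p = 2.51e-05), and Pycr1, which makes proline, rose by 0.31 (adjusted p = 0.00118). Phgdh and Psat1, the first enzymes of serine synthesis, fell by 1.06 and 0.82 (adjusted p = 3.32e-06 and 1.73e-06).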

How the data were processed

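RNA-sequencing counts of 6 cultures were analysed, 3 per group, grouped by the sample labels. The authors used Trimmomatic for read trimming, HISAT2 for alignment (GRCm38) and StringTie for quantification, and deposited whole-number counts per Ensembl gene without normalization. Versions and the use of strand are not given in the sources used here. The labels name the DNBSeq platform and the paper another sequencer. Symbols and positions came from GENCODE M21 (55227 of 55487 identifiers). The statistics used edgeR 4.0.16 in R 4.3.3, with filterByExpr (minimum count 10, minimum total 15), TMM factors, the quasi-likelihood test without covariates, and Benjamini-Hochberg adjustment over all genes tested. An adjusted p of a single gene comes from this fit unless an alternative setting is named beside it. Standard errors and 95% intervals were taken from the test statistic. Within-library ratios of per-length values were compared with two-sided exact permutation tests, adjusted over 7 ratios. Floors and intervals cover counting error and replicate spread only, and reads are not independent molecules.

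The 10 genes and all lists were chosen with earlier results of these data known. Named in addition were, from each other list, up to 3 called genes with the largest rise and up to 3 with the largest fall at a mean log2 CPM of at least 1, a few carriers and stress response genes in any case (such as Slc38a2, Slc7a6, Atf4 and Ddit3), and Pecam1, Cdh5, Col1a1, Col3a1 and Ptprc. No single identifier was found for 3 listed symbols, which were left out of the counts. The lists are not all separate. Sesn2 was counted among both the shortage response and the mTORC1 genes, and Asns among both the shortage response genes and the enzymes. Protein sequences were not analysed here. The alternatives were other normalizations, filters and tests (DESeq2 1.42.0, likelihood ratio, robust fitting), the replicate number as a block, GC content and length trends removed with mgcv 1.9.3, halved counts in case both reads of a pair were counted, thresholds, and each library left out.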

Additional observations from a re-analysis of the deposited data

How the results depend on the processing

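The calls of Slc7a2, Slc1a5, Slc1a3 (higher) and Slc7a5 (lower) were made in all 18 alternatives for each gene, and Slc1a4, Slc7a11, Slc38a1 and Slc38a4 were called in none. Slc3a2 was 0.13 with upper quartile normalization and 0.063 with library totals, both uncalled, and 0.14 to 0.18 with single libraries left out. With GC content and length corrected, Slc7a1 was -0.19 and called, without and with the replicate block, and with single libraries left out it ran from -0.17 to 0.0063. Slc7a11 became negative with library totals (-0.00077) and with the GC content and length correction (-0.0080, or -0.0068 with the block), as did Slc38a1 (-0.021, -0.029 and -0.028). Members called lower numbered 2 with that correction, with or without the block, and 1 to 2 with single libraries left out. With an added minimum of 1 on the absolute log2 fold change, 0 members were called higher and 0 lower. Among the genes outside the set that were compared in these settings, 14 alternative values changed sign, 50 lost a call and 3 gained one. The others kept sign and call. Slc7a7 became negative with upper quartile normalization (-0.027), library totals (-0.099), no filter (-0.0055), a minimum count of 50 (-0.0092) and halved counts (-0.0035), and ran from -0.099 to 0.060 with single libraries left out. Trib3 did so in the same settings (-0.024, -0.096, -0.0011, -0.0057 and -0.00052) and ran from -0.048 to 0.035. The cause was not tested for any of these. Using longest transcripts shifts a ratio of single genes equally in every library, so its difference between the groups cannot change. The ratio of the summed light chains to Slc3a2 could change, and its log2 difference went from -0.081 to -0.067.

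Library totals gave 4 lower and 0 higher organelle carriers, 12 lower and 0 higher starvation response genes, and 13 lower and 2 higher mTORC1 genes. For organelle carriers, the likelihood ratio test and robust fitting gave 1 lower, no filter gave 0 higher, and the GC content and length correction gave 1 higher, without and with the block. With single libraries left out, other plasma membrane transporters called lower ran from 3 to 7, organelle carriers from 1 to 2 lower and 0 to 2 higher, starvation response genes from 5 to 9 lower and 0 to 1 higher, and mTORC1 genes from 3 to 8 lower and 2 to 8 higher.

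Replicates carry the numbers 1 to 3 in each group's labels, which do not say that a number marks a shared isolation. Deviations from the group means correlated at -0.025, 0.0038 and 0.013 between same-numbered samples. No same-numbered pair was the best match of both its samples. With the replicate number as a block, all 10 members kept sign and call (Slc3a2 0.18, adjusted p = 0.0408 by edgeR) and 1 organelle carrier was called lower. Of the 48 genes compared under the block, members included, 46 kept sign and call, and Slc1a6 and Slc25a12 lost their calls. Slc7a3, Ddit3, Castor1, Flt1, Tek and Erg were not among the 48. Depth limits Slc38a4, which had at most 122 counts.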
